A study of Saccharomyces cerevisiae with 66 samples.

Results

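Cytoplasmic ribosomal protein genes encode the protein subunits of the ribosome that translates nuclear messages. In the RefSeq annotation of budding yeast (Saccharomyces cerevisiae, assembly R64), 137 genes carry a name made of RPL or RPS and a number, with or without a copy letter, or are RPP0, RPP1A, RPP1B, RPP2A or RPP2B. Among the 6171 genes of the deposited table, 126 of these were found by systematic identifier, since the table's own symbols follow another naming system. The other 11 (RPS4A, RPS4B, RPS6A, RPS6B, RPS14A, RPL2A, RPL2B, RPL7A, RPL7B, RPL40A and RPL40B) were not analysed here. The 126 genes comprise 70 of the large subunit, 51 of the small subunit and 5 of the stalk. They code for 73 proteins, and 78 of them have an intron in the coding region.

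Messenger RNA selected for poly(A) was sequenced in 66 libraries of diploid yeast in sporulation medium, a starvation medium in which cells enter meiosis. The libraries form 22 groups of 3: IAA and DMSO libraries of 10 strains named for an RNA factor (LSM1, PAB1, PAT1, DCP2, XRN1, RRP6, RAT1, POP2, CAF40 and NOT5) and of a control called WT, whose title names a TIR ligase. Every strain is MATa/alpha with the alleles ho::LYS2, lys2 and ura3, the disruptions leu2::hisG and trp1::hisG, and a plasmid entry at his3. For 9 of the factors the genotype adds the factor fused to a 3V5-IAA7 tag with a KanMX marker, a degron through which auxin (indole-3-acetic acid, IAA) and the ligase direct the protein to destruction. For CAF40 the genotype names no tag, and its groups rest on the titles. Neither the promoter of the ligase nor the number of clones per strain is given. The labels describe an addition, at 3 h in this medium, of 500 µM IAA together with 50 µM copper sulphate, and each title carries the time 4 h. DMSO samples bear an identical description, so whether they received copper is not known. Protein was not measured, and the labels do not say that replicates were separate cultures, so p-values measure only the spread between these libraries.

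In growing yeast these genes are among the most transcribed, and most of the proteins are encoded by a pair of gene copies, A and B. Rap1 binds their promoters and recruits Fhl1 and Ifh1, and nutrient signalling through TOR and protein kinase A sets their output, which drops when nutrients run out. Yeast messages are degraded after deadenylation by the CCR4-NOT complex (which holds POP2, NOT5 and CAF40), by decapping with DCP2 and its helpers LSM1 and PAT1, and by the exonuclease XRN1, while PAB1 coats the poly(A) tail. RAT1 and RRP6 act on RNA in the nucleus.

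Promoter sequences of the RPL15 and RPS9 pairs are shown because the copies of each pair differed in their pattern across strains. They were read from RefSeq R64 on the gene's strand, 5′ to 3′, from 450 to 151 bases before the start codon, and capitals mark the letters CCNTACA on either strand, the core of the sequence that Rap1 recognises. The RPL15A window lies at chrXII:202741-203040 (minus strand), that of RPL15B at chrXIII:510499-510798 (minus strand), that of RPS9A at chrXVI:404500-404799 (plus strand) and that of RPS9B at chrII:604058-604357 (plus strand). The RPL15B window overlaps the gene YMR122C, and the RPS9B window overlaps NTC20.
RPL15A: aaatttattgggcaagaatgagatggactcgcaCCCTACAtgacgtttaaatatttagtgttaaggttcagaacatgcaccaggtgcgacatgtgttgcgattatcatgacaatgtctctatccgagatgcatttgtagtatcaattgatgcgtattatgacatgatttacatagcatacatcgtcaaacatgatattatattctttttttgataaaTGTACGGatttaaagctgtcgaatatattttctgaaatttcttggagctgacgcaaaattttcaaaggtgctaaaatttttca
RPL15B: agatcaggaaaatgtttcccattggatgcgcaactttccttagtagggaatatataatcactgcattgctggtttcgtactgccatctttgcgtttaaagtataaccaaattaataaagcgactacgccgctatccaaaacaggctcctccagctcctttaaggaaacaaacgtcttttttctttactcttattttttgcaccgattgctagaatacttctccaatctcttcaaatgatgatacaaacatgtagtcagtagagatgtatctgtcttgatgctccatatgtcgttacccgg
RPS9A: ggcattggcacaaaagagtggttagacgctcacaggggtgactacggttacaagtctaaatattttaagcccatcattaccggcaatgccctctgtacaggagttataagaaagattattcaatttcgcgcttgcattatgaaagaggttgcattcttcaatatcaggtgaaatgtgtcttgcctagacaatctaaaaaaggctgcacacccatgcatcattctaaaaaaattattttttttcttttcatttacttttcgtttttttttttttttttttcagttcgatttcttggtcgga
RPS9B: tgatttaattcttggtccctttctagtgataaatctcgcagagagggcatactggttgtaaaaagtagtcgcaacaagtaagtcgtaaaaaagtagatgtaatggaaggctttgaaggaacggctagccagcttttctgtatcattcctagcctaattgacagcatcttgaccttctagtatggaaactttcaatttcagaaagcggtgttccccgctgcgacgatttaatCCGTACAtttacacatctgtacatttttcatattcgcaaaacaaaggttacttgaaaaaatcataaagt
The core stood at 2 places in the RPL15A window, from 417 to 411 and, on the other strand, from 233 to 227 bases before the start codon. It stood once in the RPS9B window, from 219 to 213 bases before the start codon, and these letters were in neither the RPL15B nor the RPS9A window. Of the 125 ribosomal protein genes with enough counts to test, 56% had the core in a window of this length, and so had 11.2% of the 5512 tested genes with a RefSeq coding region.  The motif and windows were chosen with the expression values known. Only exact matches were sought, so a window without the core can still hold a similar sequence. Binding of Rap1 was not measured.

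A library held 12.6 to 28.3 M counts (median 20.7 M). Levels are in CPM, counts for each 1 M counts of a library after TMM scaling, and 3 counts corresponded to 0.106 to 0.238 CPM. Such floors cover counting error only. Meiotic genes were detected in all libraries, with IME1 at 2023 to 5230 CPM. The markers of later meiosis, NDT80 and SPS4, went down to 4.71 and 0.840 CPM. The haploid pheromone gene MFA1 stayed between 0 and 0.759 CPM, but the haploid markers STE2, STE3 and RME1 were detected in every library. They reached 28.6, 31.2 and 55.4 CPM. The targeted transcript itself was called lower with IAA than with DMSO in POP2 and LSM1 and higher in PAB1, and lower in DMSO than in WT DMSO in NOT5, DCP2, LSM1, PAB1 and PAT1.

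Of the 126 ribosomal protein genes, 125 passed the low-count filter, and RPL41A, with 0 to 14 counts per library, did not. Per kilobase of coding length, the 125 genes had a median level of 169 CPM over the 66 libraries, against 58.8 CPM for the 5512 tested genes with a RefSeq coding length, and 119 of them lay above the median of all genes. RPL3, part of the peptidyl transferase centre, was the highest at 731 CPM per kilobase, before RPL10, a subunit that joins late, at 678 and RPL4A, which lines the exit tunnel, at 548. The lowest were RPS29A at 21.9, RPL22B at 15.8 and RPL41B at 6.51 CPM per kilobase. The 78 genes with an intron had a median level of 153 and the 47 without one had 203 CPM per kilobase.

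Together the 126 genes took 0.316 to 6.44% of a library's counts, with a median of 1.06%. The LSM1 libraries held 1.61, 6.44 and 4.32% with IAA and 1.94, 2.13 and 2.51% with DMSO. The PAB1 libraries held 0.316, 0.479 and 0.636% with IAA and 0.378, 0.354 and 0.332% with DMSO. The WT libraries held 1.24, 2.14 and 1.01% with IAA and 0.625, 1.39 and 1.20% with DMSO. All 3 LSM1 DMSO libraries stood above, and all 3 PAB1 DMSO libraries below, every WT DMSO library, while replicate 1 of LSM1 IAA lay below all 3 LSM1 DMSO libraries. Replicate 2 was the highest library in 14 of the 22 groups. In these bulk samples of RNA selected for poly(A), fewer cells of a type, less RNA per cell and less capture by the selection cannot be told apart.

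**Figure D1:**
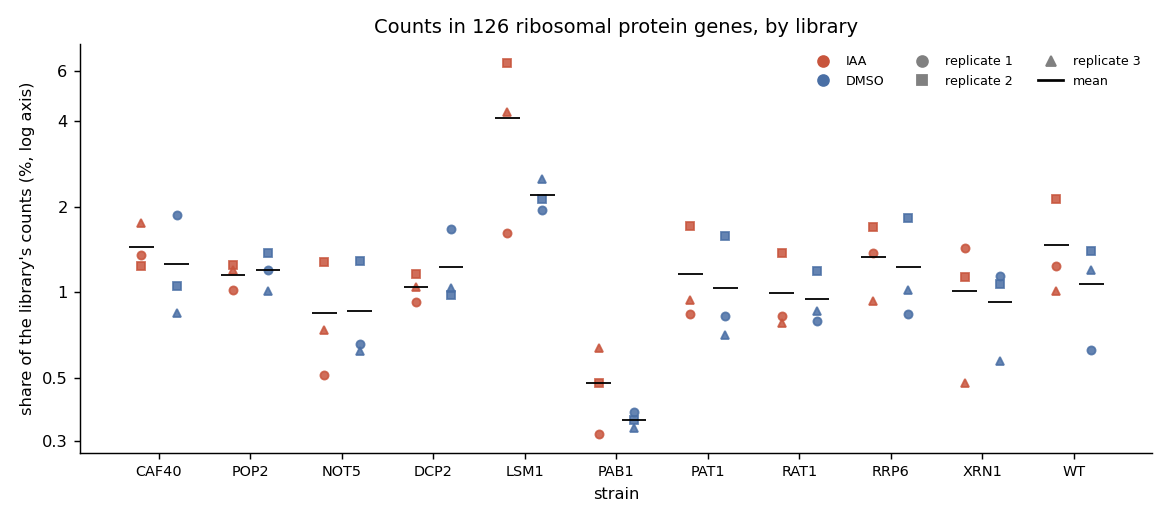
Share of each library's counts in the 126 ribosomal protein genes (percent, log axis) by strain, with IAA left of DMSO; symbols are replicates and bars are means of 3. LSM1 libraries reach 6.44% and PAB1 libraries go down to 0.316%.

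The DMSO libraries of each degron strain were compared with WT DMSO to ask whether the strains differed before auxin. In LSM1 DMSO, ribosomal protein genes of both subunits stood above WT DMSO: 84 of 125 were called higher and 1 lower (limma, Benjamini-Hochberg adjusted p under 0.05), where 15.2% of all 5828 genes tested were called higher and 15.3% lower, 30.5% in all. Their median log2 difference was 1.26, with quartiles of 1.00 and 1.43, against a median of -0.04 over all genes. In 108 of the genes all 3 LSM1 DMSO libraries lay above all 3 WT DMSO libraries, which was so for 21.6% of all genes. Called higher were 46 of 69 large-subunit genes, 36 of 51 small-subunit genes and 2 of 5 stalk genes, and 57 of 78 with an intron and 27 of 47 without. With the copies of each protein summed, 54 of 73 proteins were called higher and 0 lower.

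RPL31B (YLR406C), a subunit beside the exit of the peptide tunnel, had the largest rise. It stood at 48.9, 56.9 and 56.3 CPM in LSM1 DMSO and at 9.19, 20.1 and 16.4 CPM in WT DMSO. The groups did not overlap, and the log2 difference was 1.88 (SE 0.40, limma adjusted p = 0.000387). RPS0A (YGR214W), needed to mature the small subunit, had 360, 326 and 393 CPM in LSM1 DMSO and 78.4, 126 and 118 CPM in WT DMSO, a log2 difference of 1.77 (SE 0.33, limma adjusted p = 6.9e-05). Every LSM1 DMSO library was above every WT DMSO library for RPS0A too. RPS22A (YJL190C) rose by 1.81 on the log2 scale (SE 0.65), with 39.4, 46.1 and 62.0 CPM in LSM1 DMSO and 4.51, 27.3 and 19.7 CPM in WT DMSO. The groups did not overlap, and the call was lost without replicate 1 of WT DMSO (adjusted p = 0.235, limma) or replicate 3 of LSM1 DMSO (0.0897).

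Among subunits at the functional sites of the small subunit, RPS23A, at the decoding centre, averaged 186 ± 11.5 CPM in LSM1 DMSO and 59.9 ± 22.5 CPM in WT DMSO (SD, n = 3 each) and rose by 1.71 on the log2 scale. RPS2 and RPS3, at the entry of the message channel, had differences of 1.10 and 1.00 that were not called. RPS31, made as a fusion to ubiquitin, had 1.21 and was not called. Of the copies of RPS28, RPS28A rose by 0.83, and RPS28B, whose message is known to be degraded under control of its own protein, had 0.52 and was not called.

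In the large subunit, RPL25 at the tunnel exit rose by 1.41, RPL28, the protein altered in cycloheximide-resistant mutants, by 1.02, and RPL30, which restrains the splicing of its own transcript, by 1.09. RPL22A averaged 56.4 ± 12.8 CPM in LSM1 DMSO and 22.0 ± 11.1 CPM in WT DMSO (SD, n = 3 each) and was called higher. RPL3 (0.65), RPL5 (1.06), which binds 5S RNA, and RPL10 (1.10) were above 0 without being called, and for RPL3 and RPL5 the groups overlapped. In the stalk, which recruits the elongation factors, RPP2A rose by 1.40 and RPP1B by 1.21, while RPP0 (1.10), RPP2B (0.81) and RPP1A (0.62) were not called.

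A few genes departed from the rest. RPL15B was the single gene called lower, at 51.6, 80.8 and 47.8 CPM in LSM1 DMSO against 78.8, 95.8 and 80.9 CPM in WT DMSO, a log2 difference of -0.54 (SE 0.15, limma adjusted p = 0.00629). The groups overlapped, since replicate 2 of LSM1 DMSO was above replicate 1 of WT DMSO, and the call was lost without replicate 2 of WT DMSO or replicate 1 or 3 of LSM1 DMSO (limma adjusted p from 0.0503 to 0.0774). RPS9A had -0.98 (SE 0.58), RPL18B -0.01 (SE 0.25), RPL4A 0.24 (SE 0.45) and RPS14B 0.32 (SE 0.32), none of them called; the RPS14 protein is known to block the splicing of RPS14B transcripts.

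The count of called genes depended on single libraries. Without replicate 1 of WT DMSO, 30 genes were called higher and 2 lower, and without replicate 3 of LSM1 DMSO 51 were called higher and 0 lower. The median log2 difference lay between 0.95 and 1.49 in the 6 fits that left out 1 library.

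**Figure D2:**
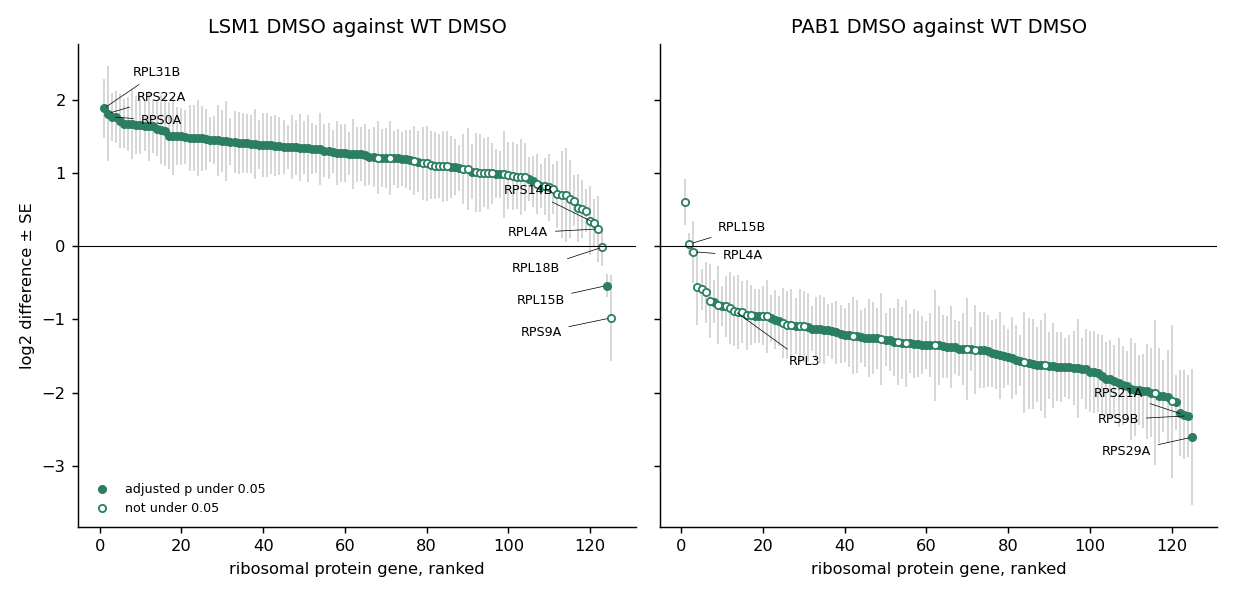
Log2 difference of each of the 125 genes, ranked, with SE, in LSM1 DMSO against WT DMSO (left) and PAB1 DMSO against WT DMSO (right). Filled points have a limma adjusted p under 0.05: 84 higher and 1 lower on the left, 92 lower on the right.

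Other genes of the ribosome's making, from lists chosen with earlier results of these data known, were read from the LSM1 DMSO against WT DMSO comparison. In that comparison 15.2% of all genes tested were called higher and 15.3% lower. Of 40 ribosome biogenesis factors 0 were called by limma, and their median log2 difference was -0.04. Of 24 elongation and ribosome-associated factors 9 were called higher and 0 lower (median 0.46), among them ANB1, a form of eIF5A made when oxygen is scarce (2.66), STM1, which sits on idle ribosomes (1.57), and EFT1, which encodes elongation factor 2 (1.35). Of 15 regulators 7 were called lower and 0 higher, including FHL1 (-0.69), HMO1 (-0.56) and SFP1 (-0.49), all known activators of ribosomal protein genes. Of 12 chaperones and export adaptors 0 were called by limma.

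Of 12 meiotic marker genes, 10 were called lower in LSM1 DMSO than in WT DMSO and 0 higher, where 15.3% of all genes were called lower and 15.2% higher. None of the 12 was at 0 CPM in any library. Their summed level was 7418 to 13138 CPM in LSM1 DMSO and 16703 to 18170 CPM in WT DMSO. In PAB1 DMSO 4 of the 12 were called higher than in WT DMSO and 0 lower, where 21% of all genes were called higher and 24.5% lower, and the sum was 23630 to 27438 CPM. Haploid markers (7 of 8 in the table, with MFA1, MFA2 and MF(ALPHA)2 at or near 0) summed to 43.1 to 50.7 CPM in LSM1 DMSO and 86.9 to 93.2 CPM in PAB1 DMSO, against 42.3 to 44.4 CPM in WT DMSO. The part of these differences in the ribosomal protein results was not tested.

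In PAB1 DMSO the ribosomal protein genes stood below WT DMSO: 92 of 125 were called lower and 0 higher, where 24.5% of all genes were called lower and 21% higher, 45.5% in all. The median log2 difference was -1.35, with quartiles of -1.65 and -1.13, against -0.08 over all genes. In 110 genes all 3 PAB1 DMSO libraries lay below all 3 WT DMSO libraries, against 26.6% of all genes. The calls took in 50 of 69 large-subunit genes, 39 of 51 small-subunit genes and 3 of 5 stalk genes, and 61 of 73 proteins with copies summed. This comparison and that of LSM1 DMSO share the WT DMSO libraries, so their values are set side by side only.

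RPS9B fell most among genes above 10 CPM, with 18.1, 16.1 and 16.2 CPM in PAB1 DMSO and 46.8, 120 and 104 CPM in WT DMSO. The groups did not overlap, and the log2 difference was -2.32 (SE 0.56, limma adjusted p = 0.000864). RPS21A had 5.21, 4.93 and 3.91 CPM in PAB1 DMSO and 14.0, 35.7 and 24.8 CPM in WT DMSO, a log2 difference of -2.30 (SE 0.61). RPS29A had the largest difference, -2.61 (SE 0.93), at 0.444, 0.361 and 0.355 CPM in PAB1 DMSO and 1.14, 3.47 and 3.85 CPM in WT DMSO, just above the level of 3 counts in the PAB1 strain; its call was lost in 5 of the 6 fits that left out 1 library (limma adjusted p up to 0.0654). In all 3 genes every PAB1 DMSO library was below every WT DMSO library.

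RPS3 differed by -1.67, RPS31 by -1.55, RPS28B by -1.60, RPS2 by -1.34 and RPS0A by -1.35, all called. In the large subunit RPL31B differed by -2.05, RPL30 by -1.62, RPL18B by -1.41, RPL10 by -1.40, RPL5 by -1.23 and RPL25 by -1.13, all called. In the stalk RPP1B (-1.77), RPP1A (-1.26) and RPP0 (-1.25) were called lower, and RPP2A (-1.33) and RPP2B (-0.90) were not called. RPL15B (0.03), RPL4A (-0.07), RPL9A (-0.55) and RPL3 (-0.88) were not called. RPS30A, picked after its values were seen, had the highest difference, 0.61 (SE 0.31, not called), at 51.3, 22.1 and 40.8 CPM in PAB1 DMSO and 15.8, 27.6 and 29.6 CPM in WT DMSO.

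Without replicate 2 of WT DMSO 42 genes were called lower, without replicate 3 of WT DMSO 59, and without replicate 3 of PAB1 DMSO 57; RPS29A lost its call without any of these. Scaling by total counts alone shifted the median of all genes to -0.45 in this comparison; relative to all genes, the median of the ribosomal protein genes was -1.27 under that scaling and under TMM. Of 40 ribosome biogenesis factors 10 were called lower and 0 higher (median -0.97), a share near the 24.5% of all genes called lower; GAR1 (-1.67), NHP2 (-1.63) and RLP7 (-1.50) had the largest differences among them. Of 12 chaperones and export adaptors 6 were called lower and 1 higher, of 15 regulators 2 lower and 6 higher, and of 24 elongation and associated factors 4 lower and 3 higher, against 24.5% lower and 21% higher among all genes. The regulators called higher were SCH9 (1.31), CRF1 (0.93), TOR1 (0.83), FHL1 (0.81), TOR2 (0.69) and DOT6 (0.47). HMO1 (-1.18) and ESA1 (-0.32) were the regulators called lower. Called genes of the other lists included ACL4 (-1.24), the chaperone of RPL4, and TEF2 (1.06), which encodes elongation factor 1A.

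In the other 8 strains few or none of the ribosomal protein genes were called against WT DMSO, which does not show that levels were equal. Medians ran from -0.33 in NOT5 to 0.39 in POP2, and limma called 0 of 125 genes in CAF40, NOT5, DCP2, PAT1, RAT1 and XRN1, where the share of all genes called was 0.0515%, 0.223%, 0.103%, 0.0686%, 1.13% and 0.0515% in that order. At an unadjusted p under 0.05 there were 0 such genes in each of these strains except RAT1, with 1. In POP2 DMSO, where 25% of all genes were called, RPS23A was called higher, at 106, 121 and 109 CPM against 34.1, 75.6 and 70.0 CPM in WT DMSO. The groups did not overlap, and its log2 difference was 0.98 (SE 0.37, limma adjusted p = 0.0430), but the call was lost without replicate 1 or 3 of WT DMSO or without any 1 of the POP2 DMSO libraries (adjusted p up to 0.235). RPL4A in POP2 DMSO, picked after its values were seen, had 343, 291 and 201 CPM against 352, 807 and 671 CPM in WT DMSO, all 3 lower (log2 difference -1.07, SE 0.41, limma adjusted p = 0.0507).

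RPL18B (YNL301C) was the gene called in RRP6 DMSO, where 0.841% of all genes were called. RRP6 is a subunit of the nuclear exosome, which trims and degrades RNA from its end. RPL18B had 93.3, 141 and 99.8 CPM in RRP6 DMSO and 35.7, 72.1 and 53.2 CPM in WT DMSO, and the groups did not overlap. The log2 difference was 1.08 (SE 0.25, limma adjusted p = 0.0133), and the adjusted p ran from 0.00641 to 0.216 in fits that left out 1 library; it was lost without replicate 1 or 3 of WT DMSO or replicate 2 of RRP6 DMSO. Fitted with only the 6 libraries compared, the adjusted p was 0.119. RRP6 IAA libraries had 144, 169 and 126 CPM, so all 6 RRP6 libraries were above the highest of the other 60, at 82.4 CPM.

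**Figure D3:**
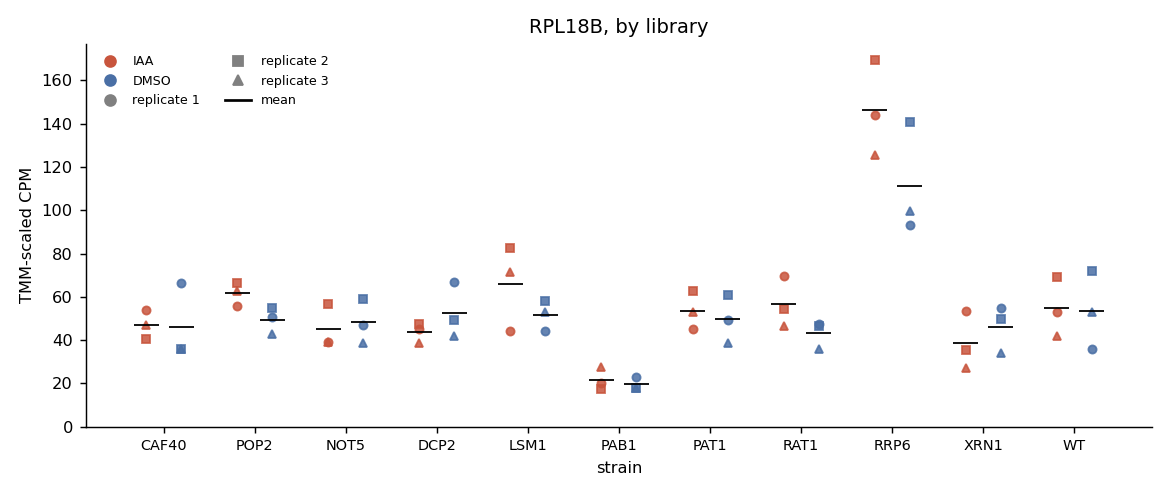
Level of RPL18B in each library (TMM-scaled CPM, linear axis from 0) by strain, with IAA left of DMSO; symbols are replicates and bars are means of 3. The 6 RRP6 libraries, from 93.3 to 169 CPM, are above all others.

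The comparison of IAA with DMSO within a strain asked what differed with the additions and any loss of a tagged factor, which was not measured. In WT, with no tagged factor, the ribosomal protein genes had a median log2 difference of 0.50, 123 of 125 were above 0, and limma called 0, with 2 at an unadjusted p under 0.05; 3.5% of all genes were called. In WT the sum of the 126 genes was 11862, 21083 and 10169 CPM with IAA and 6191, 13555 and 11509 CPM with DMSO, so the groups overlapped.

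In LSM1 few of the genes were called with IAA. Limma called 4 of 125 higher and 0 lower, where 8.32% of all genes were called higher and 18.7% in either direction, and the median log2 difference was 0.83. The called genes were RPL9A, RPS29A, RPL39, a small protein of the tunnel wall, and RPS17A, with differences of 1.33, 1.26, 1.04 and 0.95. RPL39 had 18.4, 52.3 and 38.5 CPM with IAA and 14.7, 18.4 and 15.6 CPM with DMSO. Replicates 2 and 3 with IAA were above the DMSO libraries for RPL39, and replicate 1 lay just under the highest of them. RPL10 showed the same spread, with 693, 2487 and 1933 CPM with IAA and 688, 696 and 883 CPM with DMSO, and was not called (log2 difference 0.99, SE 0.50).

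Same-numbered LSM1 libraries deviated together from their group means, though weakly (r from 0.163 to 0.355). This pairing was read from the data and not from the labels. With a replicate block that rests on it, 82 genes were called higher and 0 lower, against 17.5% of all genes called higher. Without replicate 1 of LSM1 IAA 108 were called, without replicate 2 or replicate 3 of LSM1 IAA 0, and without replicate 1 or 2 of LSM1 DMSO 1. In these IAA libraries the summed ribosomal protein level was 16810, 67995 and 44169 CPM in replicates 1 to 3, the summed meiotic marker level 8216, 5445 and 4653 CPM, and the summed biogenesis factor level 1638, 9112 and 6975 CPM. In replicate 1 the ribosomal protein sum with IAA was below the 19004 CPM of replicate 1 with DMSO. The library low for ribosomal protein genes was the one low for biogenesis factors and high for meiotic markers, and the part of this in the result was not tested. Beyond the change in WT, limma called 0 of the 125 genes in LSM1, with 0 at an unadjusted p under 0.05, a median of 0.32 and 0.429% of all genes called.

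In PAB1 the median log2 difference between IAA and DMSO was 0.56 and limma called 0 genes, with 2 at an unadjusted p under 0.05, against 21.7% of all genes called. In 30 genes every IAA library was above every DMSO library, which was so for 14% of all genes. Same-numbered libraries deviated together here too, a pairing again read from the data. With the replicate block 12 genes were called higher, and 17% of all genes were. One was RPL15A, at 93.0, 163 and 243 CPM with IAA and 88.8, 78.3 and 81.1 CPM with DMSO, a log2 difference of 0.91 in that fit (adjusted p = 0.0269). Another was RPL10, at 139, 219 and 307 CPM with IAA and 136, 133 and 130 CPM with DMSO (0.65, adjusted p = 0.0268). In both genes all 3 IAA libraries were above all 3 DMSO libraries, replicate 1 by the least.

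In the other 8 strains named for a factor the medians were between -0.20 in DCP2 and 0.28 in PAT1, and limma called 0 of 125 genes in each. The share of all genes called there was 8.05% in CAF40, 35.5% in POP2, 10% in NOT5, 1.68% in DCP2, 1.34% in PAT1, 20% in RAT1, 4.68% in RRP6 and 9.2% in XRN1. At an unadjusted p under 0.05 there were 2 ribosomal protein genes in RRP6, 1 in RAT1 and 0 in the other 6. With the replicate block RPS22B (0.72, limma adjusted p = 0.00198) and RPL18B (0.39, limma adjusted p = 0.0495) were called higher in RAT1, where 14.1% of all genes were. In RRP6, where 6.85% were, RPS9A was called higher with this block (1.40, limma adjusted p = 0.0427). RPS9A had 84.6, 73.3 and 21.0 CPM in RRP6 IAA and 13.8, 37.6 and 14.6 CPM in RRP6 DMSO, so the groups overlapped. The pairing behind these calls was read from the data. In POP2 the median of the ribosomal protein genes was 0.03, and RPS28B had 5.70, 3.45 and 4.08 CPM with IAA and 9.41, 10.1 and 6.10 CPM with DMSO. For RPS28B the groups did not overlap, and the difference of -0.92 (SE 0.61) was not called. In the tests of the change beyond WT, limma called 0 of 125 genes in each of the 10 strains, with 0 at an unadjusted p under 0.05, while the share of all genes called was 9.8% in POP2, 6.93% in RAT1, 1.36% in PAB1, 0.429% in NOT5 and in LSM1, 0.0515% in PAT1, 0.0172% in RRP6 and 0% in CAF40, DCP2 and XRN1. Medians beyond WT were below 0 in 8 strains, the lowest -0.71 in DCP2, and above 0 in LSM1 (0.32) and PAB1 (0.12).

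**Figure D4:**
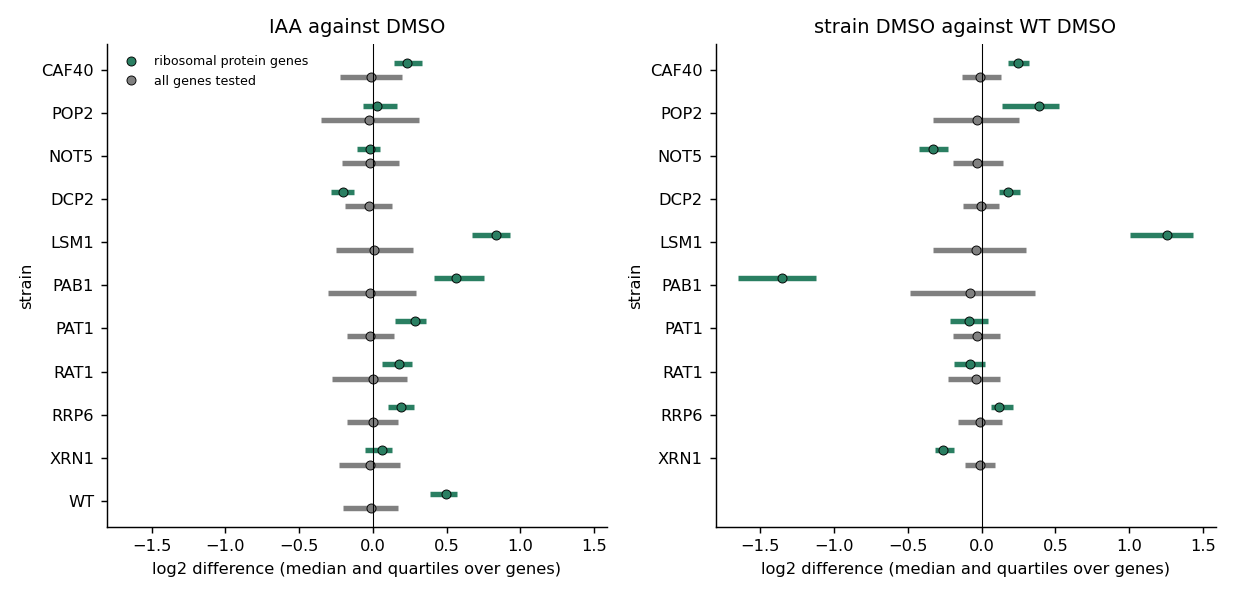
Median and quartiles of the log2 difference over the 125 ribosomal protein genes and over all 5828 genes tested, for IAA against DMSO (left) and for the DMSO libraries of each strain against WT DMSO (right). LSM1 (1.26) and PAB1 (-1.35) stand apart on the right.

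Both copies were in the table for 51 pairs, 17 of which code for identical proteins. Counts of copies with long identical stretches can be split arbitrarily, so single copies were read with the share of their 100-base stretches that the other copy holds as well: 52.8% for RPL4A and RPL4B, 3.29% for RPL15 and 0 for RPS9, RPS22, RPS0, RPL31, RPS23, RPS21 and RPS29. RPL4A and its copy are therefore uncertain as single genes. Among pairs with both copies above 10 CPM, the log2 ratio of copy A to copy B varied most over the 22 group means for RPS9, RPL15 and RPS22. The SD over group means was 0.835, 0.705 and 0.692 in that order. The median SD within groups was 0.348, 0.604 and 0.473, so libraries of a group also differed widely for RPL15 and RPS22.

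For RPL15, group means of copy B spanned a narrow range. RPL15A was called neither in LSM1 DMSO (1.01, SE 0.54) nor in PAB1 DMSO (-1.08, SE 0.50) against WT DMSO; RPL15B was called lower in LSM1 DMSO alone of these comparisons, as given above. RPL15A had 251, 1180 and 834 CPM in LSM1 IAA, 300.5, 330 and 434 CPM in LSM1 DMSO, and 88.8, 78.3 and 81.1 CPM in PAB1 DMSO, against 87.8, 283 and 215 CPM in WT DMSO. RPL15B had 58.7, 53.9 and 53.4 CPM in LSM1 IAA and 82.8, 100.5 and 77.9 CPM in PAB1 DMSO, and its group means lay between 55.3 and 94.7 CPM in all 22 groups. The ratio of A to B on the log2 scale was 3.50 ± 1.24 in LSM1 IAA, 2.58 ± 0.58 in LSM1 DMSO and -0.07 ± 0.25 in PAB1 DMSO, against 1.04 ± 0.77 in WT DMSO (SD, n = 3 each). The proteins of both copies are 99.0% identical. Of the windows printed above, that of RPL15A holds the CCNTACA core and that of RPL15B does not hold these exact letters.

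For RPS9 both copies varied. In PAB1 DMSO against WT DMSO both were called lower (RPS9A by -1.67, RPS9B by -2.32), and in LSM1 DMSO against WT DMSO neither was called (RPS9A -0.98, RPS9B 1.12). RPS9B had 134, 840 and 456 CPM in LSM1 IAA, 148, 183 and 220 CPM in LSM1 DMSO and 18.1, 16.1 and 16.2 CPM in PAB1 DMSO, against 46.8, 120 and 104 CPM in WT DMSO. RPS9A had 12.4, 43.9 and 29.2 CPM in LSM1 IAA, 8.24, 17.8 and 15.1 CPM in LSM1 DMSO and 9.43, 7.76 and 6.82 CPM in PAB1 DMSO, against 11.4, 40.0 and 35.6 CPM in WT DMSO. The ratio of A to B was -3.88 ± 0.42 in LSM1 IAA, -3.80 ± 0.40 in LSM1 DMSO and -1.08 ± 0.15 in PAB1 DMSO, against -1.73 ± 0.27 in WT DMSO (log2, SD, n = 3 each). Copy A was thus the lesser one in every one of these groups, and by most in the LSM1 strain. The window printed above for RPS9B holds the core, and that of RPS9A does not hold these exact letters. Whether the core has a part in the differences between copies was not tested.

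For RPS22 the higher copy differed between groups. Against WT DMSO, RPS22A was called higher in LSM1 DMSO and was not called in PAB1 DMSO (-2.12, SE 1.05), and RPS22B was called in neither (0.78 in LSM1 DMSO, -0.90 in PAB1 DMSO). RPS22A had 26.0, 239 and 133 CPM in LSM1 IAA and 3.72, 2.59 and 3.13 CPM in PAB1 DMSO, while RPS22B had 18.2, 72.4 and 54.7 CPM in LSM1 IAA and 8.77, 11.4 and 7.96 CPM in PAB1 DMSO. The ratio of A to B was 1.17 ± 0.61 in LSM1 IAA, 0.68 ± 0.36 in LSM1 DMSO and -1.57 ± 0.49 in PAB1 DMSO, against -0.36 ± 0.82 in WT DMSO (log2, SD, n = 3 each). Copy A was the higher one in the LSM1 groups and copy B in PAB1 DMSO. The differences between copies were not tested as such.

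**Figure D5:**
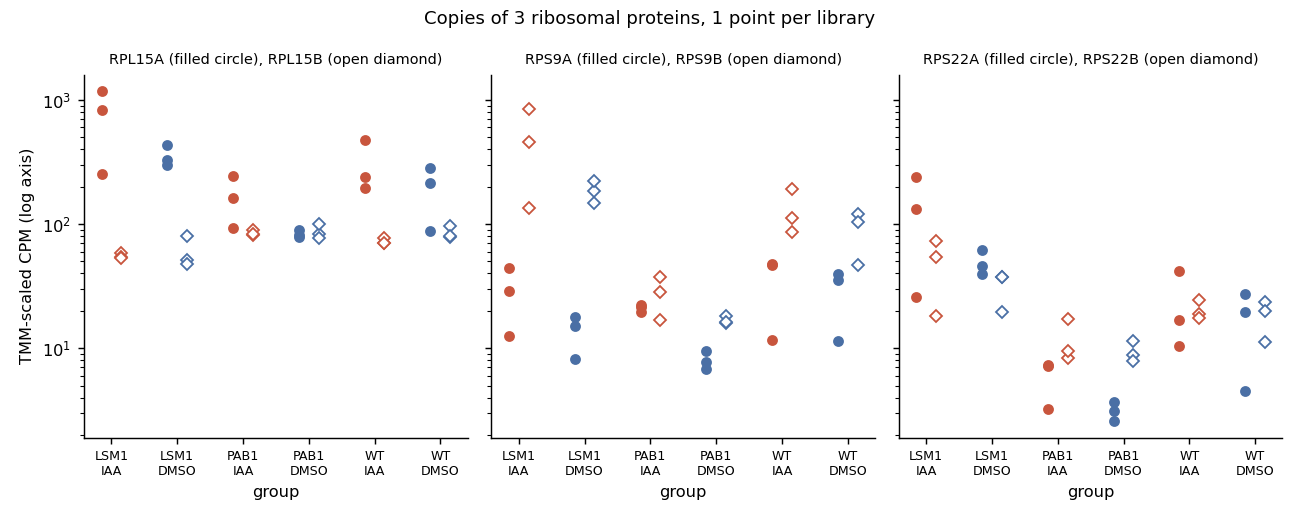
Levels of both copies of RPL15, RPS9 and RPS22 in each library of LSM1, PAB1 and WT (TMM-scaled CPM, log axis), with IAA left of DMSO; red is IAA, blue is DMSO, filled circles are copy A and open diamonds copy B. RPL15B and RPS9A stay in a narrower range than RPL15A and RPS9B.

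Over all 125 genes the CCNTACA core went with small differences in the medians. In LSM1 DMSO against WT DMSO the median log2 difference was 1.27 for the 70 genes with the core and 1.19 for the 55 without it. In PAB1 DMSO against WT DMSO it was -1.38 with the core and -1.31 without it. Called in either direction in LSM1 DMSO were 51 of the 70 and 34 of the 55, where 30.5% of all genes were. In PAB1 DMSO 52 of the 70 and 40 of the 55 were called, where 45.5% of all genes were.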

How the data were processed

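The authors deposited 1 table of whole-number gene counts per library; because its columns also hold principal component scores above the gene lines, its unit was recorded as other than counts. STAR 2.7.10a, RSEM 1.3.1 and DESeq2 1.48.1 are named, without roles, in the submitters' processing notes; the genome build is not given in the sources used here. Another 6 columns match no sample and were not used. Gene names came from RefSeq R64.

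Analysis used R 4.3.3 and limma 3.58.1, and figures Python 3.11.15. Genes needed 0.484 CPM in at least 3 libraries and 15 counts in total, which left 5828 and removed 343. TMM factors (trims 0.3 and 0.05, within R) ran from 0.631 to 1.19, lowest in PAB1. Log2 CPM (pseudocount 0.5 counts) with voom weights were fitted with 1 mean per group over all 66 libraries, and p-values were adjusted by Benjamini-Hochberg over all genes in each of 31 comparisons (11 IAA against DMSO, 10 beyond WT, 10 DMSO against WT DMSO). The fit was also run on simulated data in which genes varied independently and with equal dispersion. That run does not show how the fit behaves on these libraries. Members, lists and motifs were chosen with earlier results of these data known. Named genes are fixed genes by role, the 3 largest called rises and falls (all where few were called), the 3 highest and lowest levels, and the 3 most variable pairs; a few of these genes are not reported here.

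Replicates were compared: deviations from group means of same-numbered IAA and DMSO libraries correlated with r over 0.1 in every pair in DCP2, LSM1 (0.163 to 0.355), NOT5, PAB1 (0.449 to 0.696), PAT1, RAT1, RRP6 and XRN1, so the replicate number was taken there as pairing, from the data and not the labels; between DMSO libraries and WT DMSO it held in LSM1 alone. Alternatives were other scalings, no filter, fits of only the groups compared, a replicate block, leaving out each library, and summed copies.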

Additional observations from a re-analysis of the deposited data

How the results depend on the processing

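The median log2 difference of the ribosomal protein genes moved under each alternative by less than 1 SD of the library medians, pooled over the groups compared. Leaving out 1 of 3 libraries can hardly move a mean by that much, so for those fits this limit says nothing about stability. In PAB1 DMSO against WT DMSO the spread of WT DMSO is the wider part of this SD, and total-count scaling put the median at -1.72. Counts of called genes moved more. With the replicate block they were 82 in LSM1 IAA against DMSO, 12 in PAB1, 2 each in POP2 and RAT1 and 1 in RRP6, and 3 in POP2 DMSO against WT DMSO; it moved no other count by over 1.5 times. In POP2 (r from 0.0110 to 0.390) and between POP2 DMSO and WT DMSO (r from -0.225 to 0.264) the numbers did not meet the rule used here for pairing. With only the groups compared the counts were 7 in POP2 IAA against DMSO, 0 in LSM1 (18 at an unadjusted p under 0.05) and 1 in PAB1, and 6 in POP2 DMSO and 0 in RRP6 DMSO (1 at an unadjusted p under 0.05) against WT DMSO. Leaving out 1 library gave 0 to 108 called in LSM1 IAA against DMSO, 0 to 1 in RRP6 IAA against DMSO, and, against WT DMSO, 32 to 87 in LSM1 DMSO, 42 to 112 in PAB1 DMSO, and 0 to 1 in POP2 DMSO and in RRP6 DMSO. The causes of these moves were not tested.

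Single genes changed sign under some alternatives. With copies summed RPL15B stood at 0.67 and RPS9A at 0.87 in LSM1 DMSO and RPL15B at -0.60 in PAB1 DMSO, which are the values of the pairs. Without 1 library RPS14B ran from -0.0323 to 0.57 and RPL4A from -0.11 to 0.48 in LSM1 DMSO, and RPL4A from -0.38 to 0.17 and RPL15B from -0.0041 to 0.14 in PAB1 DMSO. In PAB1 DMSO RPL4A was 0.0289 by median-of-ratios scaling and RPL15B -0.34 by total counts. Depth limits RPL41A, RPL41B, RPL22B and RPS29A, with few counts per library.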
